A study of Homo sapiens with 7 samples.

Results

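The regions inside SKAP1 and UBASH3A are 2 of the 380 candidate regulatory regions that the study placed in a lentiviral massively parallel reporter assay, in which a candidate sequence drives a barcoded transcript and the barcode in RNA is set against the same barcode in genomic DNA (gDNA). They were selected on their wild-type estimates, since 1 wild-type construct of each was among the extreme values of the authors' deposited comparison with scrambled sequence, so the wild-type values below are described and not tested. Their constructs were found by the region coordinates in the construct names. The SKAP1 region held 8 of 358 wild-type constructs and 7 of 1025 mutant constructs, and the UBASH3A region held 4 wild-type and 4 mutant constructs. Together they cover 12 of the 1059 tested sites.

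The host cells were C4-2B, an established epithelial line of human prostate cancer, transduced with the whole library and with no other treatment named in the labels. The series has 7 libraries that carry this line's label, namely 3 of gDNA and 3 of RNA extracted 48 hours after transduction, and 1 that ties barcodes to sequences. The groups that are compared are versions of a sequence (wild-type, scrambled, mutant) that were carried by the same cells and not separate samples. The values come from the authors' deposited tables of comparisons, which combine the replicates, so no value per library can be shown, the depth is unknown for every estimate and the spread between replicates could not be measured.

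SKAP1 encodes a cytosolic adaptor of T cells that couples the T-cell receptor to integrin adhesion through its partner FYB1. UBASH3A encodes a ubiquitin-binding protein with an SH3 domain and a phosphatase-like domain, which dampens signalling from the T-cell receptor. Both genes are known mainly from lymphocytes, and the assay reads the sequence of a region in an integrated reporter, not the expression of either gene. No marker of a cell type is measured by it, so the labelled identity of the cells could not be checked.

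The SKAP1 region lies at chr17:48156513-48159961 (hg38), within the gene body at 48133442 to 48445061. It is 3449 bp long, the 38th longest of the 380 regions, whose median length was 946 bp. No other gene of the RefSeq table overlaps it, and the nearest other protein-coding gene, SNX11, which encodes a sorting nexin, is 32912 bp away. The UBASH3A region lies at chr21:42440843-42441892 (hg38), within the gene body at 42403902 to 42447684 and 5792 bp from the end of higher coordinate. It is 1050 bp long, and RSPH1, a gene of the ciliary radial spoke, is the nearest other protein-coding gene at 30594 bp. Whether the tested sites lie in exons or introns was not resolved here.

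Sites are numbered below from the lowest coordinate. The 8 SKAP1 sites span 1105 bp and stand 216, 44, 38, 182, 45, 12 and 567 bp apart. The 4 UBASH3A sites span 559 bp and stand 362, 26 and 170 bp apart. A median region held 2 sites. At SKAP1 the tested changes are 2 deletions (sites 1 and 4), 3 transitions (sites 2, 6 and 8) and 3 transversions (sites 3, 5 and 7), and at UBASH3A 2 transitions (sites 2 and 3) and 2 transversions (sites 1 and 4). Site 3 of SKAP1 has a wild-type construct and no row in the mutant table, as have 34 of the 358 wild-type constructs in all.

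An estimate is read here as a log odds ratio (natural log) for RNA relative to gDNA, positive where wild-type exceeds scrambled sequence or where mutant exceeds wild-type, a direction read from how the tables are named. The error after ± is the standard error implied by the estimate and its z value. A construct is called higher or lower where the authors' adjusted p was under 0.05. Of all constructs in the authors' deposited wild-type comparison, 62.3% were called, 34.1% higher and 28.2% lower.

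Wild-type SKAP1 sequence gave less reporter RNA than scrambled sequence at 3 of 8 sites and more at 1. Site 1, at one end of the tested stretch, had the lowest estimate, -1.12 ± 0.08 per the authors' deposited table, an odds ratio of 0.325 with a 95% interval from 0.279 to 0.379. It ranked 17th from the lowest and had the 4th smallest p of the table. Site 2 stood at -0.63 ± 0.10 per the authors' deposited table, an odds ratio of 0.534. These neighbouring sites carry the largest values of the SKAP1 region, and both lie below scrambled sequence.

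Between them and the other end of the stretch the estimates were small. Sites 3 and 4 stood at -0.19 ± 0.12 and -0.13 ± 0.09 per the authors' deposited table and were not called. Site 5 was called higher at 0.15 ± 0.05 per the authors' deposited table, an odds ratio of 1.17. Site 7 was called lower at -0.24 ± 0.07 per the authors' deposited table, an odds ratio of 0.788. Sites 6 and 8, at -0.17 ± 0.12 and -0.22 ± 0.14 per the authors' deposited table, were not called. The share called was 50%, beside 62.3% over all wild-type constructs. Of the 8 estimates, 7 were negative, and the median was -0.21 against 0.02 over the authors' whole deposited table. The share, the count and the median include site 1, on which the region was selected. Standard errors at SKAP1 ran from 0.05 to 0.14, beside a median of 0.11 in the table.

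Read in order along the SKAP1 region, each wild-type estimate from site 1 to site 5 was above the one before it. The steps of site 2 over site 1, site 3 over site 2 and site 5 over site 4 were 0.50 (95% interval 0.25 to 0.74), 0.44 (0.13 to 0.75) and 0.28 (0.07 to 0.49), while that of site 4 over site 3 was 0.06 (-0.24 to 0.37). The first of these steps involves site 1, on which the region was selected. These intervals add the squared errors of both constructs, which overstates the error of the authors' model if the constructs share their scrambled reads. Site 6, 45 bp from site 5, was lower than it by -0.32 (95% interval -0.58 to -0.06). Sites 6 and 7, which lie 12 bp apart, differed by -0.07 (-0.35 to 0.21). Over the table as a whole, neighbouring wild-type sites within 50 bp differed by a median of 0.44 in size (127 pairs), about as much as those farther apart, at 0.47 (133 pairs). The interval of the difference lay off 0 for 62.2% of the closer and 64.7% of the farther pairs, so steps like those at SKAP1 were common in the table.

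At UBASH3A a single wild-type construct stood far above the others. Site 1 had an estimate of 2.98 ± 0.75 per the authors' deposited table, an odds ratio of 19.7 with a 95% interval from 4.54 to 85.6. It ranked 6th from the highest among the bounded estimates, and its standard error was the largest of the 12 wild-type constructs of both regions. Among bounded estimates that error ranked 349th from the smallest, in a table of 358 constructs of which 5 were unbounded. The median error of the table was 0.11. Site 2, 362 bp away, stood at 0.10 ± 0.07 per the authors' deposited table and missed the threshold, with an odds ratio between 0.973 and 1.27. Site 3 was at -0.05 ± 0.06 per the authors' deposited table and missed the threshold too, with an odds ratio between 0.840 and 1.07. Site 4 was called lower at -0.30 ± 0.12 per the authors' deposited table, an odds ratio of 0.743. The share called, with the selected site 1 included, was 50%, beside 62.3% over all wild-type constructs.

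The UBASH3A wild-type range of 3.28 is set by site 1, the value that brought the region in, and nothing is read from it. The SKAP1 range of 1.28 has the selected site 1 of that region as its low end. For that reason nothing is read from it either, beside a median of 1.33 over the 42 regions with at least 4 bounded wild-type estimates. UBASH3A sites 2 and 3, 26 bp apart, differed by -0.16 (-0.34 to 0.02), an interval that holds 0.

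The mutant table compares each changed sequence with its wild-type counterpart. The regions were picked from the wild-type comparison, but both comparisons use wild-type reads, so the mutant values are not independent of that choice. At any site, error in shared wild-type reads would move the wild-type and mutant estimates in opposite directions. At a construct selected for a low wild-type value it would push the mutant estimate up, and for a high value down. The size of this push was not measured. Each call is the authors' test of their logit model, two-sided and with Benjamini-Hochberg adjustment over all 1025 mutants. Of all mutants in the authors' deposited table, 56.6% were called, 29.5% higher and 27.1% lower.

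Mutant sequence was called higher than wild-type in reporter RNA at 4 of 7 SKAP1 sites and lower at 0. The share called, 57.1%, is near the background of 56.6%. The substitution at site 2, a transition, had the largest estimate, 0.83 ± 0.09 per the authors' deposited table, or 2.28-fold higher odds (95% interval 1.92 to 2.71, Benjamini-Hochberg adjusted p = 2.94e-19), the 30th smallest p of the 1025. The deletion at site 4 followed at 0.39 ± 0.08 per the authors' deposited table, or 1.47-fold (1.26 to 1.73, Benjamini-Hochberg adjusted p = 6.92e-06). The transversions at sites 7 and 5 were called at 0.28 ± 0.08 and 0.16 ± 0.05 per the authors' deposited table, or 1.32- and 1.17-fold (Benjamini-Hochberg adjusted p = 0.00220 and 0.00149). All 4 called SKAP1 mutants stood above their wild-type sequence, by at most 2.28-fold. Over all mutants 29.5% were called higher and 27.1% lower, and constructs of 1 region are not replicates, so no common direction is read. Wild-type estimates at sites 2, 4 and 7 were -0.63, -0.13 and -0.24, and 0.15 at site 5, per the authors' deposited table. Error in shared wild-type reads was not separated from these rises.

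The other SKAP1 mutants were not called. The deletion at site 1, where wild-type was lowest, stood at -0.19 ± 0.09 per the authors' deposited table (Benjamini-Hochberg adjusted p = 0.0615), an odds ratio between 0.691 and 0.987. The transition at site 6 stood at 0.05 ± 0.14 per the authors' deposited table, an odds ratio between 0.807 and 1.38. The transition at site 8 was at -0.10 ± 0.18 per the authors' deposited table, between 0.634 and 1.28. The intervals at sites 6 and 8 hold the 1.17-fold rise called at site 5, and that at site 6 also holds the 1.32-fold rise called at site 7, so rises of that size could not be told from no change there. The interval at site 1 holds no rise.

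Along the SKAP1 region, 3 of the 6 steps between neighbouring mutants had 95% intervals without 0, where 63.5% of such steps within 50 bp and 60.8% of longer ones did over the whole mutant table. Site 2 exceeded site 1 by 1.02 (95% interval 0.77 to 1.26), and site 4 was below site 2 by -0.44 (-0.67 to -0.20). Site 5 was below site 4 by -0.23 (-0.41 to -0.05). Past site 5 the neighbours did not differ beyond their error, with differences of -0.10 (-0.39 to 0.18), 0.22 (-0.09 to 0.54) and -0.38 (-0.77 to 0.01). The SKAP1 mutant range of 1.02 was 51st of 92 regions with at least 4 bounded mutant estimates, whose median was 1.15. Over the whole deposited table, 56.6% of transitions, 56.2% of transversions and 58.8% of deletions were called, so the share varied little with the kind of change.

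At UBASH3A 1 mutant was called higher, 1 lower and 2 neither, a share of 50% called beside 56.6% over all mutants. The transversion at site 1, where wild-type was far above scrambled sequence, was called lower at -0.37 ± 0.17 per the authors' deposited table, an odds ratio of 0.690 (95% interval 0.497 to 0.957, Benjamini-Hochberg adjusted p = 0.0466). The transition at site 3 was called higher at 0.17 ± 0.06 per the authors' deposited table, or 1.19-fold (1.05 to 1.34, Benjamini-Hochberg adjusted p = 0.0112). The transition at site 2 stood at 0.04 ± 0.03 per the authors' deposited table and missed the threshold, with an odds ratio between 0.978 and 1.11. Its standard error was the 35th smallest of the table, so a change beyond 1.11-fold in the direction of more RNA lies outside its interval. The transversion at site 4 stood at 0.02 ± 0.17 per the authors' deposited table and missed the threshold, between 0.735 and 1.42.

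The mutant range at UBASH3A, 0.54, was 79th of the same 92 regions. Site 2 exceeded site 1 by 0.41 (95% interval 0.08 to 0.74), while sites 2 and 3 differed by 0.13 (-0.003 to 0.27) and sites 3 and 4 by -0.15 (-0.50 to 0.20).

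The calls of both regions were sensitive to the adjustment for the number of tests and to the scale of z. No other error model was fitted, and the spread of z is widened by effects as well as by error. Of the wild-type calls, dividing z by its spread over the table kept that at SKAP1 site 1. Bonferroni adjustment kept those at SKAP1 sites 1 and 2 and UBASH3A site 1. Each region was selected on its site 1 value, so nothing is read from those calls being kept. The small values at SKAP1 sites 5 and 7 and UBASH3A site 4 lost their calls under both. Over all mutants the authors' deposited z values spread with a robust SD of 3.92, where 1 is the spread without any effect, and dividing z by it left 0 of the 6 mutant calls. With Bonferroni adjustment over the table, SKAP1 sites 2 and 4 kept their calls and the other 4 mutant calls were lost.

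Adding the wild-type and mutant estimates of a site places the mutant sequence against scrambled sequence, if the wild-type construct of a name is the same in both tables. The sums are descriptions. Their errors are upper bounds within the authors' model, because shared wild-type reads enter with opposite sign. Error between replicates is not known to be covered by them. At SKAP1 site 1 and UBASH3A site 1 the sums, -1.31 ± 0.12 and 2.61 ± 0.77, consist mostly of the wild-type values that the regions were selected on, and nothing is read from them. At SKAP1 site 2 the wild-type value of -0.63 and the mutant change of 0.83 summed to 0.20 ± 0.13, with a 95% interval from -0.06 to 0.45 that holds 0.

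At the other SKAP1 sites the sums were small. Site 4 summed to 0.26 ± 0.12, and site 5 to 0.31 ± 0.07, or 1.37-fold higher odds than scrambled sequence. Sites 6, 7 and 8 summed to -0.11 ± 0.18, 0.04 ± 0.11 and -0.33 ± 0.23, all with intervals that hold 0. UBASH3A sites 2, 3 and 4 summed to 0.14 ± 0.07, 0.12 ± 0.09 and -0.28 ± 0.21, with intervals that hold 0.

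The large UBASH3A value was also the least precise of the set. At site 1 the squared error of the wild-type comparison was 20.1 times that of the mutant comparison, the 5th highest ratio of 316 constructs with bounded estimates in both tables, where the median ratio was 0.875. If both comparisons use the same wild-type reads and the squared errors add, those reads can carry at most 4.98% of the squared error of the value against scrambled sequence. Neither condition is known to hold, and the source of the error was not tested. At UBASH3A site 2 the ratio was 4.47, and at site 3 it was 1.02. At the SKAP1 sites with both values it ran from 0.587 to 1.34.

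The regions most like each of these in wild-type values were sought. Among 75 other regions with at least 2 bounded wild-type estimates, likeness was measured as the Euclidean distance between the lowest, median and highest wild-type estimate. This distance includes the values that the regions were selected on and leaves out the order of sites. Nearest to SKAP1 were regions overlapping LOC112694756 (distance 0.23), 734 bp from CHMP4B, which encodes a subunit of the ESCRT-III membrane-scission complex (0.24), and 5559 bp from GGT6, of the gamma-glutamyltransferase family (0.27). The regions of LOC112694756 and GGT6 had 3 wild-type constructs each. The wild-type estimates at CHMP4B ran from -1.02 to 0.34 over 13 constructs per the authors' deposited table, with 4 called higher and 4 lower. Its 13 mutants gave 4 higher and 3 lower calls per the authors' deposited table, where SKAP1 gave 4 and 0. The mutants at GGT6 ran from 0.12 to 0.95 with 1 of 3 called higher, and those at LOC112694756 from -0.88 to -0.34 with 1 of 3 called lower, per the authors' deposited table.

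For UBASH3A the nearest regions stood farther off. They lay inside UCKL1, a gene of the uridine kinase family (distance 0.64), SOD1, which encodes the cytosolic superoxide dismutase (1.05), and TMEM132C, which encodes a transmembrane protein (1.13). Their highest wild-type estimates were 2.74, 3.60 and 2.24 per the authors' deposited table, beside 2.98 at UBASH3A. Their wild-type medians, over 3, 3 and 2 constructs, were 0.35, 0.66 and 0.85, beside 0.03 at UBASH3A. Of the UCKL1 mutants 2 of 3 were called lower per the authors' deposited table, of those at SOD1 2 of 6 were called higher and 2 lower, and of those at TMEM132C 2 of 3 were called higher and 1 lower.

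A list of 105 genes of T-cell receptor signalling, costimulation and T-lineage transcription factors was set beside the regions. SKAP1, UBASH3A and SATB1 were the list's genes that overlapped a region or were its nearest protein-coding gene. SATB1, a thymocyte chromatin organiser, was the nearest protein-coding gene to 2 regions, 213004 and 223003 bp away on chromosome 3, with no wild-type construct. Its mutants stood at -2.09 ± 0.26, -0.21 ± 0.08 and -1.09 ± 0.50 per the authors' deposited table, the first and second called lower (Benjamini-Hochberg adjusted p = 6.06e-15 and 0.0272) and the third not (0.0504). Over the list, 14 mutants gave 5 higher calls, 3 lower and 6 neither, a share of 57.1% called beside 56.6%, with a median of 0.03 against 0.02 over all mutants, per the authors' deposited table. Of these 14, 11 are the SKAP1 and UBASH3A mutants themselves. Without them the list held 3 mutants with 0 higher calls, 2 lower and 1 neither, a share of 66.7% and a median of -1.09. The list total is therefore no wider comparison of T-cell genes. The 12 wild-type constructs, all of SKAP1 and UBASH3A, gave 2 higher calls, 4 lower and 6 neither, a share of 50% called beside 62.3% over the table.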

How the data were processed

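The authors' 2 deposited tables were used as given, 1 of wild-type against scrambled and 1 of mutant against wild-type sequence. The submitters' processing notes list Bowtie2 and hg38 with neither role nor version. Per the file headers, estimates come from a logit model, and they were taken as natural log odds ratios. Their direction was read from the table names. Beside each estimate the authors deposited a z value (a score), a p-value and a q-value. In all 358 and 1025 constructs p matched a two-sided normal test of z, and q the Benjamini-Hochberg value, within a relative tolerance of 1e-06. Filters, barcode numbers, construct length and the scrambled sequences were not given in the sources used here. Computed here (Python 3.11.15, pandas 2.3.3, scipy 1.17.1) were standard errors (estimate over z), 95% normal intervals, medians, differences, sums and distances. Estimates beyond 10 in size, 5 wild-type and 13 mutant and none at SKAP1 or UBASH3A, stayed out of medians, ranges and ranks by estimate.

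Starts were raised by 1 base to count from 1. Regions were given to the overlapping or nearest of 19993 protein-coding genes of the RefSeq table for GRCh38.p14, leaving out chromosome Y. The regions, the gene list and the rules were chosen with earlier results of these data known. Every construct of both regions is named, as are list genes with a construct and, for each region, the 3 most alike others. Adjustments were checked on simulated data. Alternatives were Bonferroni adjustment, a limit of 0.01, scaled z, unadjusted p, a weighted mean, and, for medians, standard errors under 0.5. The tables hold no values per library, so depth and counting error are unknown. Base changes and positions of mutations are left out, and the promoter sequences of SKAP1 and UBASH3A were not used here.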

Additional observations from a re-analysis of the deposited data

How the results depend on the processing

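The estimates of single constructs are the same under every alternative, which change calls and medians. With Bonferroni adjustment SKAP1 kept 2 of 4 wild-type and 2 of 4 mutant calls, UBASH3A kept 1 of 2 and 0 of 2, and the T-cell signalling list kept 3 of 8 mutant calls. With an adjusted p under 0.01, UBASH3A had 1 wild-type and 0 mutant calls, and the SKAP1 counts held at 4 and 4. The spread by which z was divided was 4.12 in the wild-type and 3.92 in the mutant table. With z so divided, SKAP1 had 1 wild-type call, at site 1, and 0 mutant calls, and UBASH3A had 0 in each table. Wild-type calls at site 1 of either region belong to selected values, so nothing is read from their being kept. At an unadjusted p under 0.05 of the authors' logit model, SKAP1 had 4 wild-type and 5 mutant calls and UBASH3A 2 and 2. The median wild-type estimate at UBASH3A was 0.03, -0.01 as a weighted mean and -0.05 without the site of large error, so it has no settled sign. The other medians kept their sign under both alternatives. Counting list genes that overlap a region left 6 of 8 mutant calls. No paired analysis was possible because the deposited tables hold comparisons over all replicates and no column per replicate, and for the same reason no replicate could be left out. Depth is unknown, and errors between replicates are not measured by these p-values.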
